A study of Mus musculus with 14 samples.

Results

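Solute carriers of the brain's barriers and meninges were followed by RNA-SEQ in the brains of Capn15 KO and WT mice. The 10 genes are Slc6a12, Slc6a13, Slc13a3, Slc13a4, Slco1a5, Slco1a4, Slco1c1, Slc47a1, Slc22a6 and Slc22a8, and all 10 were found by symbol among the 17927 genes of the count table. They were selected on the KO against WT difference of these same brains, which was known when the list was made. Their genotype values are therefore a description here and carry no test, while sex and litter played no part in the choice and were tested.

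Every brain was taken on postnatal day 2 (P2) from an untreated mouse, and each brain gave 1 library. There were 7 WT brains, 2 female and 5 male, and 7 Capn15 KO brains (KO), 4 female and 3 male. The methods describe a Capn15(lacZ-Neo) line and a floxed Capn15 line, both made from C57BL/6J mice, and do not say which of them gave these brains. The paper's methods state that the brains came from 6 litters. The column names hold letters from A to F, which were read here as the litters, although the names do not say so. On that reading a WT and a KO brain with the same replicate number were littermates. Litter B gave replicates 2 and 3, and the other litters gave 1 pair each.

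Blood, cerebrospinal fluid and brain tissue are kept apart by the endothelium of brain capillaries, the epithelium of the choroid plexus and the arachnoid layer of the meninges. Solute carriers in these layers let chosen small molecules through and clear others away. The Slc6 members carry GABA and osmolytes such as betaine together with sodium, the Slc13 members carry dicarboxylates or sulfate together with sodium, and the Slco and Slc22 members carry organic anions. These include thyroid hormone, conjugated steroids and many drugs.

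Of the members, 6 lie on chromosome 6 of GRCm38, 2 on chromosome 19, 1 on chromosome 2 and 1 on chromosome 11. Slc6a13 (chr6:121300227-121337733) and Slc6a12 (chr6:121343076-121365775) follow each other on the plus strand with 5.342 kb and no coding gene between them. Slc22a8 (chr19:8591254-8611835) and Slc22a6 (chr19:8618039-8628299) do the same with 6.203 kb between them. The Slco members form another cluster. In it Slco1c1 (chr6:141524368-141570177, plus strand) is 235.262 kb from Slco1a4 (chr6:141805440-141856199, minus strand), and Slco1a4 is 378.027 kb from Slco1a5 (chr6:142234227-142322981, minus strand). Slc13a4 (chr6:35267957-35308131), Slc13a3 (chr2:165405028-165473230) and Slc47a1 (chr11:61343401-61378345), all on the minus strand, stand alone.

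Neighbouring members can share sequence, which limits how surely a read is given to one of them. The longest stretch that the main coding transcripts of Slco1a4 and Slco1a5 have in common is 139 bases. It is coding, and it covers the end of exon 9 and the start of exon 10 in Slco1a4 and the end of exon 7 and the start of exon 8 in Slco1a5. The same search gave 53 coding bases of exon 2 for Slc6a12 and Slc6a13. The stretches are given from GENCODE M21 transcripts in the 5′ to 3′ direction, with the identical part in capitals and 12 bases on each side in lower case.
Slco1a4: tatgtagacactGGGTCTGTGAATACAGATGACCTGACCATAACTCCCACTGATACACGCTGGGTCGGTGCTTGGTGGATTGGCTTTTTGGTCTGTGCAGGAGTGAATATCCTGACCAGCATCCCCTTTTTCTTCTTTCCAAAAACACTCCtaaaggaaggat
Slco1a5: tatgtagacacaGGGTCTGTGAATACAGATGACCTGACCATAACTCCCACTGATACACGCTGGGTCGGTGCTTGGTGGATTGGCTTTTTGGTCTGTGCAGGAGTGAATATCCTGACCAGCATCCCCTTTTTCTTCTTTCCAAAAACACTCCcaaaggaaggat
Slc6a12: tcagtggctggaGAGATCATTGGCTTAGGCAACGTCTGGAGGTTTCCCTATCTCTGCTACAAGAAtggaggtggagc
Slc6a13: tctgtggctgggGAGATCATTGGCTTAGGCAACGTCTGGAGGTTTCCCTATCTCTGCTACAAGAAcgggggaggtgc

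Of all 50-base words in the transcripts of Slco1a5, 3.56% also occur in another gene, mostly Slco1a4. The share is 1.61% for Slco1a4, 0.457% for Slc22a8, 0.140% for Slc6a13 and 0.126% for Slc6a12, and no such word was found in the other 5 members. Slco1a5 also overlaps Iapp on the opposite strand and Gm25430 on the same strand, Slc13a3 overlaps Gm14437 on the opposite strand, and Slc6a13 overlaps Gm24855 on the opposite strand. These are overlaps of gene bodies, and whether exons overlap was not examined. The strand setting of the counting is not given in the sources used here, so reads of any overlapping exons might not be told apart. Slco1a5 had the largest share of common words, so its level is the least certain of the 10 in this respect.

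The adjacent Slc22a8 and Slc22a6 genes are shown with the 110 bases before their RefSeq start sites (GRCm38.p6), because both windows hold the letters GTTAAT, a half-site of the HNF1 factors. The capitals mark those letters. The window of Slc22a6 is chr19:8617886-8617995 and that of Slc22a8 is chr19:8593072-8593181, both on the plus strand, and the second lies inside the gene as GENCODE M21 draws it.
Slc22a6: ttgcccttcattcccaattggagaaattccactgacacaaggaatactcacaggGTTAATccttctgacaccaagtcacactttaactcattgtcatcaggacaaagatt
Slc22a8: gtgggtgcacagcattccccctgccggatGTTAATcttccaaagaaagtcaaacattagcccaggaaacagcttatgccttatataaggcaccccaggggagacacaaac

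A window of 300 bases around the start site was at hand for 9 members, and both strands were searched. GTTAAT was in 2 of the 9 and in 7.1% of 32851 windows of all genes, starting at position -56 from the Slc22a6 start site and at position -81 from the Slc22a8 start site. TATAAA, the letters of the TATA box, was in 2 of the 9 (Slco1a5 and Slco1c1) and in 13.6% of all windows. It started at position -97 from the Slco1a5 start site and at position 2, past the start, for Slco1c1. TGTTTAC of the FOX factors and CTTTGAT of the TCF/LEF factors were in 0 of the 9 windows, against 3.65% and 3.73% of all. These matches describe letters only.

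The libraries held between 37620954 and 70910163 counts on genes, so that 3 counts corresponded to between 0.0423 and 0.0800 CPM (counts of a gene per 1000000 counts of the library). All CPM values are scaled with edgeR's TMM factors. The labels call the cell type neurons, yet all 15 choroid plexus epithelium, 15 leptomeningeal fibroblast and 12 brain endothelium markers examined had counts in every library. Capn15 was between 24.98 and 27.3 CPM in WT replicates 1 to 6 and between 12.2 and 14.5 CPM in KO replicates 1 to 6. The litter F libraries went against their labels, with 18.7 CPM in the one labelled WT replicate 7 and 20.2 CPM in the one labelled KO replicate 7. Genotype values of the members are therefore given with and without litter F.

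Levels of different genes were compared as CPM per kilobase of exon. Slco1c1, a thyroxine carrier of brain endothelium and choroid plexus, had the highest WT mean at 12.5 ± 1.41 CPM per kb (SD, n = 7), and Slc6a13, a GABA carrier, followed at 10.02 ± 1.14 CPM per kb (SD, n = 7). Their WT ranges overlapped. The next 4 in order of WT mean were Slc22a6 at 4.48 ± 0.677, Slc13a4 at 4.09 ± 0.481, Slc22a8 at 3.88 ± 0.350 and Slc13a3 at 3.47 ± 0.351 CPM per kb (SD, n = 7 each). Neighbours in this group overlapped, and all of its WT libraries lay below all WT libraries of Slc6a13. Slco1a4 (1.47 ± 0.311), Slc6a12 (1.02 ± 0.174) and Slc47a1 (0.581 ± 0.179 CPM per kb) came below them without a gap among themselves. Slco1a5 was last at 0.273 ± 0.0522 CPM per kb, and its highest WT library, at 0.325 CPM per kb, lay below the lowest of Slc47a1, at 0.372 CPM per kb. The WT mean of Slco1c1 was 45.6-fold that of Slco1a5 on this scale and made up 29.8% of the summed WT level of the 10 members. KO brains kept the same order of means, with Slc6a12 and Slc47a1 side by side at 0.765 ± 0.139 and 0.758 ± 0.227 CPM per kb (SD, n = 7 each).

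**Figure D1:**
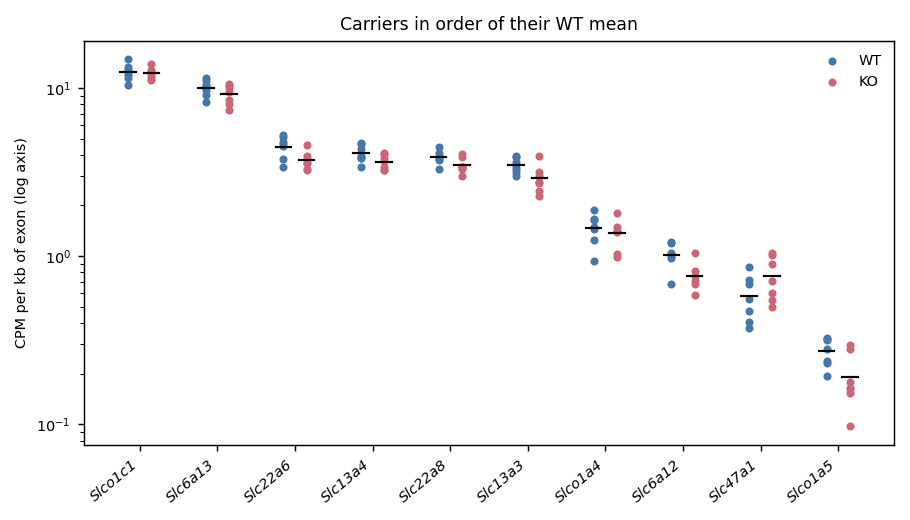
CPM per kilobase of exon on a log axis for the 10 carriers in order of their WT mean, with 7 WT and 7 KO libraries as points and black lines at the means. Slco1c1 and Slc6a13 lie highest, 4 carriers lie between 3 and 5.24 CPM per kb in WT, and Slco1a5 lies lowest.

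Slc6a12 encodes a carrier of betaine and GABA. In WT brains it ranged from 2.10 to 3.70 CPM with a median of 3.14, and in KO brains from 1.80 to 3.17 CPM with a median of 2.31. The ranges overlapped, and 2 KO libraries lay below all WT libraries while 3 WT libraries lay above all KO libraries. KO replicate 7 of litter F was the highest KO library at 3.17 CPM. The KO library was the lower one in all 7 pairs, a pattern seen at 1.09% of all genes in either direction, and nothing is read from it because the genotype difference was known when the gene was listed. The log2 fold change from the model of litter, sex and genotype was -0.43 (SE 0.105), and -0.47 (SE 0.117) without litter F.

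Slc6a13, its neighbour on chromosome 6, encodes a GABA carrier found in the leptomeninges. Its WT levels ran from 23.8 to 33.3 CPM (median 29.996) and its KO levels from 21.5 to 30.8 CPM (median 27.4). The KO library was lower in 6 of 7 pairs, but the ranges overlapped widely, with 5 of the 7 libraries of each genotype inside the range of the other. Its log2 fold change was -0.14 (SE 0.0372), and -0.11 (SE 0.0384) without litter F.

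Slc13a3 encodes a carrier of dicarboxylates such as succinate. WT brains lay between 15.6 and 20.5 CPM with a median of 17.9, and KO brains between 11.9 and 20.6 CPM with a median of 14.3. In KO, 5 libraries lay below all WT libraries, and the library labelled KO replicate 7 lay above them all. Without litter F the KO brains were at 14.2 ± 1.72 CPM (SD, n = 6) and the WT brains at 17.7 ± 1.65 CPM (SD, n = 6), and the ranges still overlapped. The log2 fold change was -0.29 (SE 0.0744), and -0.35 (SE 0.0729) without litter F. It was -0.15 without WT or KO replicate 4, the pair of litter C.

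Slc13a4 encodes a sulfate carrier. Its levels were 15.3 to 21.2 CPM (median 17.8) in WT and 14.7 to 18.7 CPM (median 16.7) in KO brains, with 5 of 7 pairs lower in KO. Most libraries of both genotypes lay between 14.7 and 18.7 CPM, and 3 WT libraries lay above that. Between genotypes the log2 fold change was -0.20 (SE 0.0613), and -0.20 (SE 0.0683) without litter F.

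Slco1a5 encodes an organic anion carrier of the choroid plexus and was the scarcest member, with 18 to 55 counts per library. WT brains lay between 0.724 and 1.21 CPM (median 1.04) and KO brains between 0.362 and 1.10 CPM (median 0.613). The split within KO was wide. KO replicates 1 and 7 were at 1.05 and 1.10 CPM, inside the WT range, and the other 5 lay below all WT libraries. Counting error alone was large here, with a 95% Wilson interval of 0.229 to 0.572 CPM for KO replicate 4 and of 0.916 to 1.6 CPM for WT replicate 4. The log2 fold change was -0.67 (SE 0.223) over 14 libraries and -0.87 (SE 0.212) without litter F, and it was -0.45 without WT or KO replicate 4.

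Slco1a4 encodes an organic anion carrier of brain endothelium. It ranged from 5.96 to 12.1 CPM (median 9.59) in WT and from 6.30 to 11.6 CPM (median 9.03) in KO brains. All 7 KO libraries lay inside the WT range. Its log2 fold change was -0.12 (SE 0.0655), and -0.13 (SE 0.0740) without litter F.

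Slco1c1 lay between 54.1 and 76.9 CPM (median 64.5) in WT and between 57.7 and 72.0 CPM (median 63.3) in KO brains. Again all 7 KO libraries were inside the WT range, and the KO library was lower in 4 of 7 pairs and higher in 3. The log2 fold change was -0.023 (SE 0.0445) and turned to 0.012 (SE 0.0432) without litter F, so its sign depended on those libraries.

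Slc47a1 encodes an exchanger of organic cations for protons and was the 1 member with a higher mean in KO. WT brains lay between 1.26 and 2.90 CPM (median 1.87) and KO brains between 1.68 and 3.52 CPM (median 2.41). In KO, 3 libraries lay above all WT libraries, and in WT 3 lay below all KO libraries. The KO library was the higher one in all pairs but that of litter F. The log2 fold change was 0.35 (SE 0.160), and 0.51 (SE 0.139) without litter F, but 0.23 without WT or KO replicate 4.

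Slc22a6 and Slc22a8 encode exchangers that take organic anions up against dicarboxylates. Slc22a6 lay between 13.4 and 20.9 CPM (median 18.5) in WT and between 12.9 and 18.2 CPM (median 14.3) in KO brains. WT replicate 2, at 13.4 CPM, and KO replicate 2, at 18.2 CPM, ran against the other pairs. Its log2 fold change was -0.31 (SE 0.0933), and -0.32 (SE 0.102) without litter F. Slc22a8 lay between 12.9 and 17.3 CPM (median 15.2) in WT and between 11.7 and 15.8 CPM (median 13.3) in KO brains. It was lower in KO in 4 of 7 pairs and higher in 3. Its log2 fold change was -0.17 (SE 0.0637), and -0.21 (SE 0.0660) without litter F. It was -0.098 without WT or KO replicate 4.

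**Figure D2:**
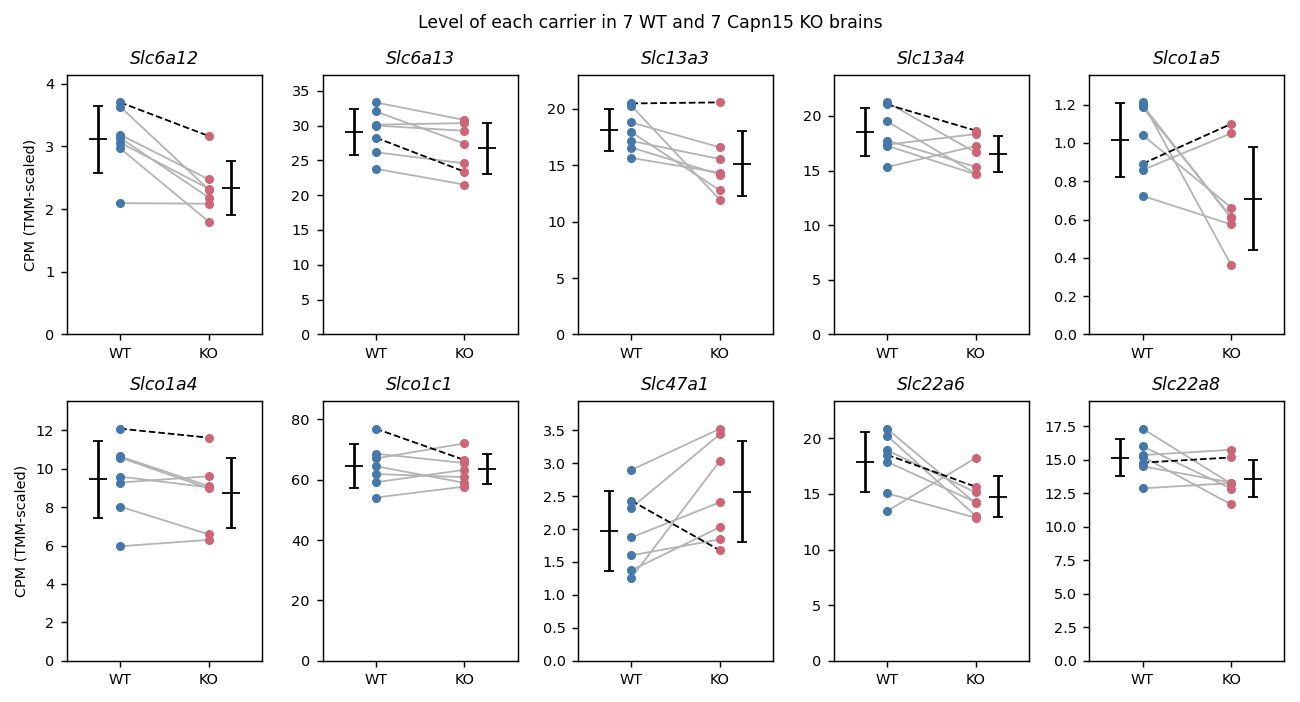
CPM of each carrier in WT (blue) and KO (red) libraries, with lines joining the pairs of the same replicate number, a dashed black line for litter F, and bars for the mean ± SD of 7 libraries. The WT and KO points overlap in all 10 panels, and the dashed line runs against the other 6 pairs in Slc47a1 and, by a small margin, in Slc13a3.

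Over the 10 members, 9 log2 fold changes were below 0 and 1 was above it, with a median of -0.18, while the median over all genes was 0.0015 and 48.6% of all genes were below 0. This is the contrast the genes were listed with, so the direction is no result. No member had WT and KO ranges that did not overlap, with or without litter F. Over all genes 0.00558% had separate ranges with 7 and 7 libraries, and the share without litter F was not computed. With edgeR's quasi-likelihood test 0 members had an FDR under 0.05, and 0 had one with its likelihood ratio test or with DESeq2, against 0.00558% of all genes with the first test. Capn15 itself was not called by the quasi-likelihood test, at a log2 fold change of -0.81 (SE 0.118, FDR = 0.0747). The 0 calls are therefore not read as a lack of change in the members. An unadjusted p under 0.05 was seen at 8 members and at 5.14% of all genes, which again describes the choice. The paper, also with edgeR and with sex and litter as variables, lists Slc6a12, Slc13a3 and Slco1a5 as decreased at an FDR under 0.05. Its fold changes for them are larger in size than those given here, and so are those it lists for Capn15, Ptgds and Ttr. It also lists more genes at that threshold than the 1, Ptgds, called here by the quasi-likelihood test. The reason for these differences was not tested.

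**Figure D3:**
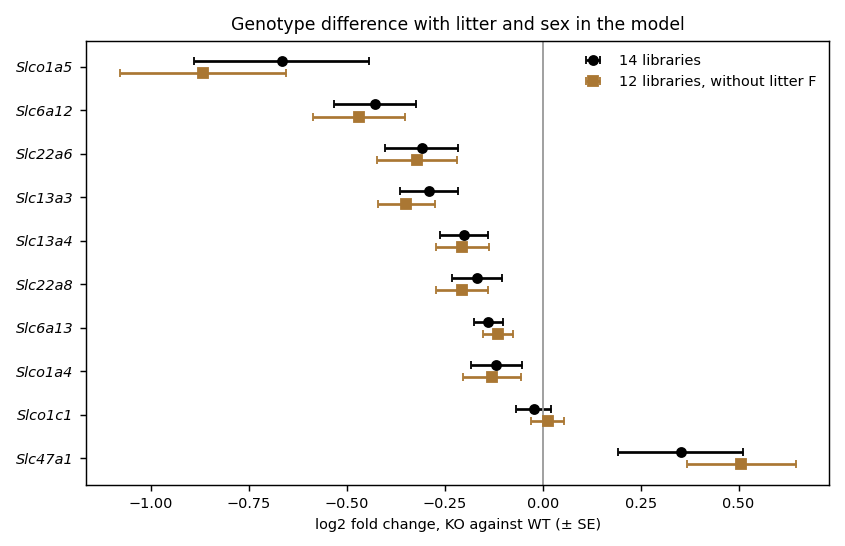
Log2 fold change of KO against WT (± SE) for each carrier from the model with litter and sex, over 14 libraries (circles) and over the 12 libraries without litter F (squares). Slco1a5 is lowest at -0.67 and -0.87, Slco1c1 lies on both sides of 0, and Slc47a1 lies to the right of 0 at 0.35 and 0.51.

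Females and males were compared with litter and genotype in the model. None of the 10 members was called between the sexes by edgeR's quasi-likelihood test (0 with an FDR under 0.05, lowest FDR 0.927). That test called 0.0669% of all genes, and 0 members had an unadjusted p under 0.05. The likelihood ratio test and DESeq2 also called 0 members. The fitted log2 difference of females over males was above 0 in all 10 members, from 0.0056 in Slco1c1 to 0.38 (SE 0.243) in Slco1a5, and 51.6% of all genes were above 0. The remaining members lay at or below 0.12. Female KO brains were paired with male WT brains in litters A, B and E, and the reverse held in litters C and D. The fitted sex and genotype differences therefore depend on each other. Without sex in the model the genotype log2 fold change of Slco1a5 was -0.56, against -0.67 with it. The choice of the members on genotype can thus shift their sex values, and nothing is read from the shared sign. For 6 members (Slc6a12, Slc13a3, Slco1a4, Slco1c1, Slc47a1 and Slc22a8) the sign turned when single libraries were left out, with -0.084 for Slc13a3 without WT or KO replicate 4 as the lowest value. Slco1a5 was at 0.13 without WT or KO replicate 4. For the abundant Slc6a13 the difference was 0.052 (SE 0.0401) and for Slco1c1 0.0056 (SE 0.0481). The error was larger for the scarcer Slc47a1, with 0.086 (SE 0.172), which leaves room for differences of either sign.

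Litters were compared with sex and genotype in the model, to ask which members varied between litters beyond the spread within them. The test called 3 of the 10 members, while it called 29.6% of all genes, so the members were no more often called than genes in general. The 3 were Slc6a13 (FDR = 0.000503, edgeR's quasi-likelihood test), Slco1a4 (FDR = 0.000815) and Slco1c1 (FDR = 0.0283). Slco1a4 and Slco1c1 shared their lowest litter, B, and their highest litter, F, while Slc6a13 had other extremes.

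Slc6a13 was lowest in litter A, at 21.5 and 23.8 CPM, and highest in litter E, at 30.8 and 33.3 CPM. The 4 libraries of litter B lay close together, between 29.2 and 30.3 CPM, although they were of both genotypes and both sexes. Litter D was low as well, at 24.6 and 26.2 CPM. Thus all libraries of litters A and D lay below all libraries of litters B and E.

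Slco1a4 showed a different order. The 4 libraries of litter B held the 4 lowest values of all 14, between 5.96 and 8.03 CPM. Litters A, C, D and E lay between 8.98 and 10.6 CPM. The libraries of litter F were the highest, at 11.6 and 12.1 CPM, and the call held without litter F (FDR = 0.00314).

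Slco1c1 was also lowest in litter B, with a mean of 58.5 CPM, and highest in litter F, with a mean of 71.7 CPM, but single libraries overlapped. Its call was lost when WT replicate 1, 2, 3 or 7 or KO replicate 1 or 2 was left out, with an FDR between 0.0515 and 0.0775. It held without litter F (FDR = 0.0341). Slc6a13 and Slco1a4 were called in each of the 19 alternatives.

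Among the other 7 members the FDR for litter lay between 0.0676 for Slc13a3 and 0.709 for Slco1a5. Slc47a1 had an FDR of 0.0783 and passed without litter F (FDR = 0.0154). Slc13a3 passed with DESeq2 (FDR = 0.0144) and had an FDR of 0.437 without litter F, whose libraries were at 20.5 and 20.6 CPM. For Slc22a6 (FDR = 0.579) and Slc22a8 (FDR = 0.351) no litter difference beyond the spread within litters was detected.

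**Figure D4:**
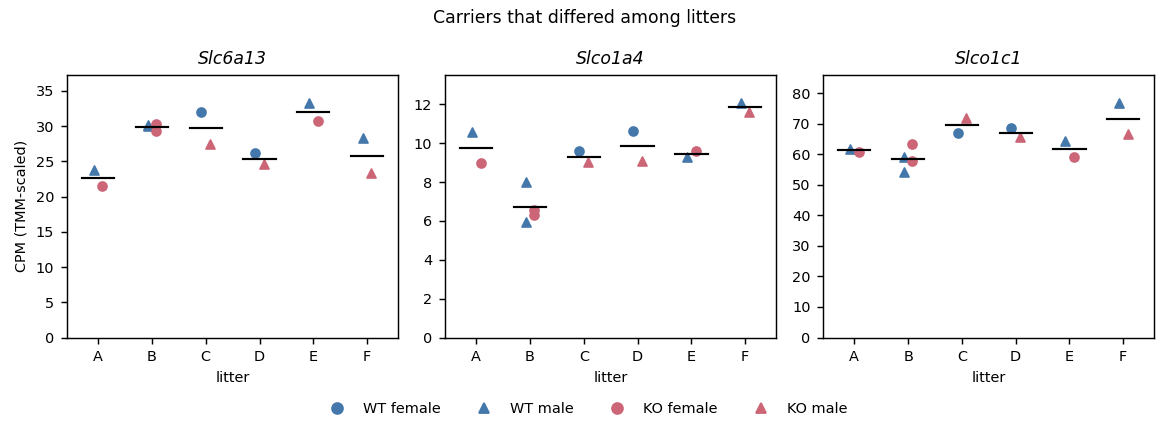
CPM of Slc6a13, Slco1a4 and Slco1c1 in the libraries of litters A to F, with WT in blue, KO in red, females as circles, males as triangles and black lines at the litter means. Litter B is lowest for Slco1a4 and Slco1c1 while litter A is lowest for Slc6a13.

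The related transporters gave a frame for these values. Of 62 listed genes of the same families or of the brain barriers, 53 were measured. Between genotypes 0 of the 53 were called (9 with an unadjusted p under 0.05) and between the sexes 0 (4 with an unadjusted p under 0.05) by edgeR's quasi-likelihood test, and likewise 0 by the likelihood ratio test and by DESeq2. Among litters 25 of the 53 were called (47.2%). The median log2 fold change of KO against WT was -0.025, with 30 of 53 below 0.

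By family, the Slc6 relatives had 3 of 4 genes below 0 with a median of -0.029. The most abundant per kilobase was Slc6a11, a GABA carrier of astrocytes, at 48.4 CPM per kb in WT, which is above both Slc6 members of the barriers. The citrate carrier Slc13a5, the 1 measured Slc13 relative, was at 7.25 ± 0.866 CPM in WT and 6.68 ± 1.26 CPM in KO brains (SD, n = 7 each). All 6 measured Slco relatives had a log2 fold change above 0 with a median of 0.026, and Slco3a1 was the most abundant at 5.56 CPM per kb in WT. Of 8 Slc22 and Slc47 relatives 5 were below 0 with a median of -0.020, led in level by Slc22a17 at 70.6 CPM per kb. The other barrier transporters had 21 of 34 below 0 with a median of -0.041, led by the amino acid carrier Slc7a5 at 35.7 CPM per kb.

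The smallest adjusted p between genotypes in these lists belonged to Slc16a12, a carrier of creatine (log2 fold change -0.25, SE 0.0649), to Slc22a2, an organic cation carrier (-0.54, SE 0.140), and to Slc6a20a, a proline carrier of the choroid plexus and meninges (-0.18, SE 0.0577). Their FDR were 0.466, 0.466 and 0.746. Between the sexes Slco2b1, Slco5a1 and Slc7a3 had the smallest unadjusted p, and they shared their FDR of 0.927 with other transporters of the lists. Among litters they were the monocarboxylate carrier Slc16a1 (FDR = 7.37e-05), the arginine carrier Slc7a3 (FDR = 0.000113) and the bicarbonate carrier Slc4a10 (FDR = 0.000182).

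Markers of the cells that hold these carriers were read beside them. The marker lists were made with earlier results of these data known, and the paper lists Ttr, Enpp2 and Ptgds among its decreased mRNAs. Their genotype values are therefore a description too. In whole brain, fewer cells of a type and less RNA per cell cannot be told apart. Choroid plexus epithelium markers had 14 of 15 log2 fold changes below 0, with a median of -0.26 (-0.19 without litter F). Their summed level was 891 to 1147 CPM in WT and 739 to 994 CPM in KO brains. The quasi-likelihood test called 0 of the 15 (13 with an unadjusted p under 0.05), the likelihood ratio test 3 and DESeq2 2. Ttr, the thyroxine-binding protein made by this epithelium, was at 846 ± 74.1 CPM in WT and 680 ± 84.2 CPM in KO brains (SD, n = 7 each), and Enpp2 at 121 ± 12.9 and 105 ± 5.97 CPM. Their part in the values of the members was not tested.

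Arachnoid barrier markers had 6 of 7 below 0 with a median of -0.16, and a summed level of 334 to 440 CPM in WT and 259 to 376 CPM in KO brains. One of the 7 was called, Ptgds, the synthase of prostaglandin D2, which fell by 0.38 on the log2 scale (SE 0.0488, FDR = 0.0398). With the replicate block in place of litter, with genotype alone in the model, or without WT replicate 1, 3, 4, 5 or 6 or KO replicate 1, 2, 4, 5 or 6, 0 of the 7 were called. Ptgds holds most of that sum, and Cldn11 came next at 20.99 ± 2.32 CPM in WT and 19.8 ± 2.13 CPM in KO brains (SD, n = 7 each). Leptomeningeal fibroblast markers had 12 of 15 below 0 with a median of -0.067, and 778 to 982 CPM in WT against 804 to 961 CPM in KO brains. Their leading genes were Col3a1 at 214 ± 27.9 and 200 ± 26.0 CPM, and Zic1 at 187 ± 14.1 and 184 ± 22.0 CPM, in WT and KO. The quasi-likelihood test called 0 of the 15 (4 with an unadjusted p under 0.05), the likelihood ratio test 2 and DESeq2 1, and the quasi-likelihood test without litter F 1. The smallest p belonged to Ogn (log2 fold change -0.39, SE 0.0735, FDR = 0.176) and Fmod (-0.55, SE 0.106, FDR = 0.176), 2 matrix proteoglycans named after their values were seen. Here too their part in the values of the members was not tested.

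Brain endothelium markers had 2 of 12 below 0 with a median of 0.026, at 281 to 356 CPM in WT and 287 to 350 CPM in KO brains, led by Kdr and Cldn5. Pericyte markers (3 of 8 below 0, median 0.014, led by Rgs5 and Vtn), astrocyte and radial glia markers (4 of 8, median -0.0087, led by Fabp7 and Slc1a3) and neuron markers (2 of 8, median 0.016, led by Tubb3 and Map2) had medians near that of all genes. Blood cell markers, led by Hbb-bs and Hba-a1, had 6 of 6 below 0 with a median of -0.078. Their summed level varied from 31.1 to 323 CPM in WT and from 35.7 to 240 CPM in KO brains, and all 6 were called among litters. No marker of the 8 lists was at 0 counts in any library.

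The members were then compared with each other across libraries, on log2 CPM with the mean of each genotype subtracted. The 14 points share litters, dissections and depth, so the correlations are a description. Of 45 pairs 35 had Pearson's r above 0, the median was 0.32, and 8 were above 0.6. Slc6a12, Slco1a4 and Slco1c1 went together, with r of 0.76 for Slc6a12 and Slco1a4, 0.74 for Slc6a12 and Slco1c1 and 0.71 for Slco1a4 and Slco1c1. With the litter mean also subtracted these became 0.89, 0.37 and 0.27. In every litter but B the WT and the KO library then mirror each other. Values of r with the litter mean subtracted thus rest on fewer independent points than libraries. They also hold the sex difference of the pairs of unlike sex.

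A second set was Slc13a3, Slco1a5 and Slc22a8, with r of 0.74 for Slc13a3 and Slco1a5, 0.70 for Slc13a3 and Slc22a8 and 0.67 for Slco1a5 and Slc22a8. With the litter mean subtracted these were 0.79, 0.82 and 0.81. The sets were not fully apart. Slco1a4 of the first set had an r of 0.61 with Slc13a3 and of 0.55 with Slc22a8, and each was 0.18 with the litter mean subtracted. Slc13a4 and Slc22a6 had an r of 0.66, and 0.82 with the litter mean subtracted. Slc6a13 had an r of -0.50 with Slc13a3, -0.48 with Slco1a4 and 0.53 with Slc47a1. With the litter mean subtracted these were 0.065, -0.12 and 0.62, and Slc6a13 with Slc13a4 moved from 0.29 to 0.58. Of the neighbours on the chromosome, Slc6a12 and Slc6a13 had an r of -0.11 (-0.043 with the litter mean subtracted), and Slc22a6 and Slc22a8 one of 0.35 (0.69 with the litter mean subtracted).

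Against the mean score of the marker lists, Slco1a4 had an r of 0.86 with astrocyte and radial glia markers, 0.78 with neuron markers and -0.69 with blood cell markers. With the litter mean subtracted these were 0.56, 0.40 and -0.32. With brain endothelium markers its r was 0.36, or 0.25 with the litter mean subtracted. Slc13a3 (0.65) and Slc22a8 (0.61) also went with astrocyte and radial glia markers, and Slco1c1 had an r of -0.61 with blood cell markers. With the litter mean subtracted these 3 were 0.15, 0.22 and -0.78. Slc13a4 (0.77), Slc6a13 (0.72) and Slc22a6 (0.63) went with arachnoid barrier markers, and with the litter mean subtracted these were 0.86, 0.85 and 0.71. The latter were not particular to this list. Astrocyte and radial glia markers then gave 0.82, 0.65 and 0.81 for the same members, from 0.53, -0.46 and 0.16. Leptomeningeal fibroblast markers then gave 0.80 for Slc22a6. Slc47a1 had an r of 0.58 with arachnoid barrier markers, and 0.70 with the litter mean subtracted. Slc6a13 had an r of -0.65 with brain endothelium markers and -0.61 with neuron markers, and both signs turned with the litter mean subtracted (0.49 and 0.19). With choroid plexus epithelium markers Slc6a13 had the highest r, 0.55, and Slc47a1 had 0.49. With the litter mean subtracted Slco1c1 was highest there at 0.75, from 0.076, and Slc47a1 (0.60) and Slc6a13 (0.40) followed.

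**Figure D5:**
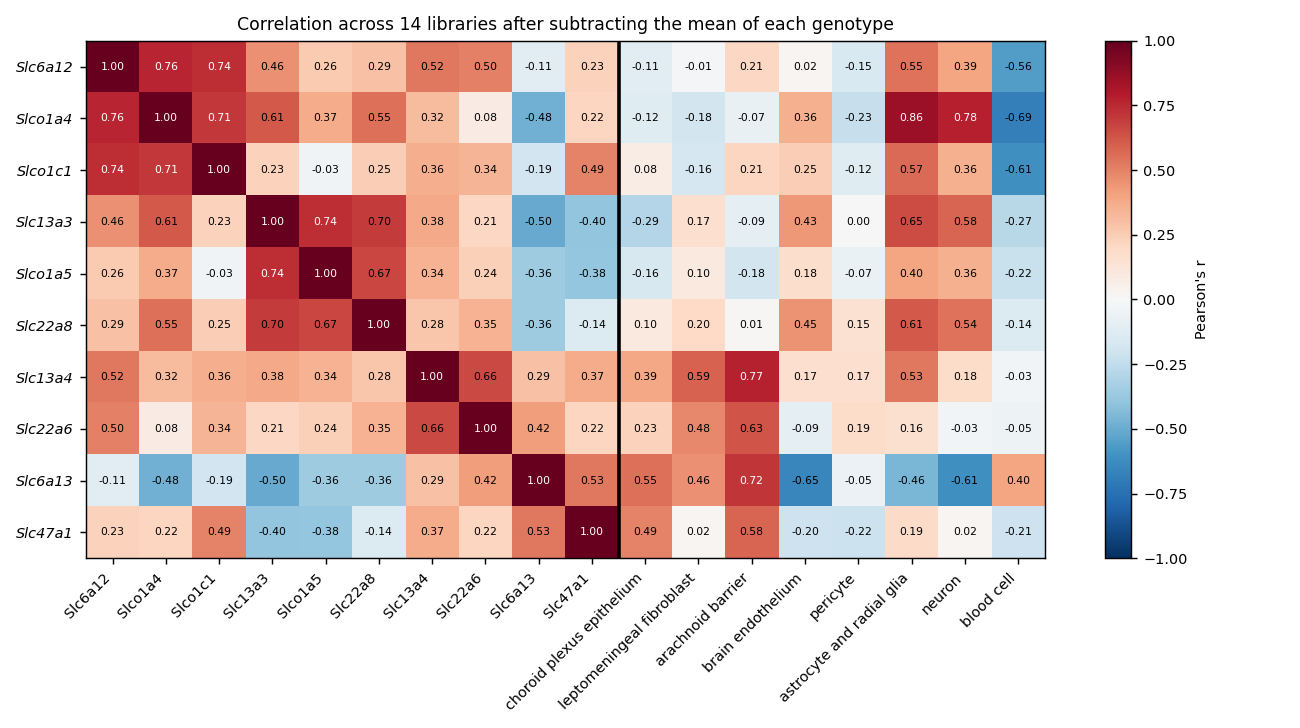
Pearson's r across 14 libraries, with the mean of each genotype subtracted, of the 10 carriers with each other (left of the line) and with the mean score of 8 marker lists (right of it), from -1 in blue to 1 in red. Slc6a12, Slco1a4 and Slco1c1 form 1 red block and Slc13a3, Slco1a5 and Slc22a8 another, in an order set by hand. Slco1a4 also has an r of 0.61 with Slc13a3.

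The genes most like each member were taken from 15218 genes with a mean of at least 1 CPM by the same r over 14 libraries. A high r can come from searching so many genes with so few libraries, so these names are a description only. Slco1a4 had the closest, Mfap3l (0.98) and Fam131b (0.97). For Slc13a3 they were Atp5g1 (0.95) and Cox6a1 (0.94), for Slc22a8 Atp6v1f (0.94) and Taldo1 (0.90), and for Slc6a12 Pitpnb (0.94) and Zfp771 (0.87). Slc6a13 was most like Ythdf2 (0.91) and Atg4b (0.91), Slco1c1 like Stxbp3 (0.89), and Slc47a1 like Polr3k (0.90) and Klhl9 (0.89). For Slc13a4 they were Gjb6 (0.90) and the proline carrier Slc6a20a (0.85). Slc22a6 was most like Ccdc96 (0.87) and Cartpt (0.83), and Slco1a5 like BC004004 (0.87) and Tmem117 (0.84).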

How the data were processed

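RNA-SEQ counts per gene were deposited by the authors for 7 WT and 7 Capn15 KO P2 brains, as raw counts without normalization. Per the paper's methods, reads were trimmed with Trimmomatic, aligned to GRCm38 with STAR and counted with HTSeq-count. The labels name featureCounts and a stranded TruSeq kit instead, so the counting tool is uncertain, and the annotation release, strand setting and gene filter are not given in the sources used here. Of 14 columns 0 were left unused. Genotype came from the labels, and litter and sex were read from letters in the column names, which do not name them as such.

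Counts were fitted in R 4.3.3 with edgeR 4.0.16 (quasi-likelihood test, model of litter, sex and genotype, TMM scaling, no gene left out that had a count), and FDR is the Benjamini-Hochberg adjusted p over 17927 genes, with a threshold of 0.05. SE is the size of the log2 fold change divided by the square root of the F statistic. DESeq2 1.42.0 and edgeR's likelihood ratio test were alternatives. The fits were tested on simulated data. Log2 CPM used a prior count of 2. Positions, exon lengths and transcripts are from GENCODE M21, where 17915 genes were found by identifier, and windows around start sites are from RefSeq.

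The members and all lists were chosen with earlier results of these data known. The other genes named were the most abundant of each list, those with the smallest adjusted p among related transporters (ties by unadjusted p) and the 2 most like each member, of which 1 gene is not reported here. Same-numbered libraries share a letter in the column names and were read as littermates. After the genotype means were subtracted their correlations over genes lay between -0.47 and 0.44, and those of litters C, D and E were below 0. No library was a copy of another (the closest of 1 genotype gave a chi-square per gene of 5.61). Wilson intervals, and the floor set at 3 counts, hold counting error alone.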

Additional observations from a re-analysis of the deposited data

Results flagged for a closer look

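In the 36 sets of 7 libraries examined (10 members and 8 marker lists in each genotype), 1 library stood apart from the rest of its genotype by Dixon's criterion, where chance would give about 1.8. It was WT replicate 2 for Slc6a12, at 1.10 log2 CPM against 1.59 for the next lowest WT library, a gap that spans 0.611 of the WT range. Without that library the log2 fold change of Slc6a12 between KO and WT was -0.48, against -0.43 with it.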

How the results depend on the processing

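The number of genes called between genotypes was 1 with the quasi-likelihood test and 34 with edgeR's likelihood ratio test, 17 with DESeq2, 7 without litter F, 2 without sex in the model and 0 with the replicate block in place of litter, and it ranged from 0 to 7 when single libraries were left out (7 without KO replicate 7). In all of these 0 members were called. Between the sexes the count was 12, and it was 36 with the likelihood ratio test, 19 with DESeq2, 12 with the replicate block and 11 to 16 when single libraries were left out, again with 0 members. Among litters it was 5301, and between 3626 and 6711 under the alternatives, with 2 to 6 members called. RLE size factors and filterByExpr, which removed no gene, changed no count by more than 1.5 times. The cause of these differences was not tested. The sign of the genotype log2 fold change stayed in all 22 alternatives for 9 members, and in 19 for Slco1c1. That of the sex difference stayed in all 20 for Slc6a13, Slc13a4, Slco1a5 and Slc22a6, and in 13 to 19 for the others. Library totals in place of TMM factors moved the mean CPM of the members by less than 1 SD. The median r over the member pairs was 0.32, and stayed within 0.1 of it under the alternatives. Depth limits Slco1a5 (18 to 55 counts) most.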
